A study of Mus musculus with 18 samples.

Results

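Weekly prednisone was compared with vehicle in female mice, in RNA from isolated quadriceps myofibers. Of the 43430 genes in the deposited count table, 12889 had at least 10 counts in at least 3 of the 6 libraries of these mice and were tested. The choice of genes did not use the treatment, but a gene could pass through 3 libraries of the same group. Of the tested genes, 11671 had at least 10 counts in all 6 libraries, 39 reached that count in all 3 weekly libraries and in 0 vehicle libraries, and 4 reached it in all 3 vehicle libraries and in 0 weekly libraries. At the edge of the rule, 162 genes had a third-highest count of exactly 10 and were kept, and 214 had a third-highest count of 9 and were not.

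The mice were wild-type animals of both sexes, C57BL/6 in the labels and C57BL/6J in the study's methods, that received vehicle, prednisone once a week or prednisone every day for several weeks. Each sex and regimen had 3 libraries, which makes 18 libraries in 6 groups, and each library came from 1 mouse. The groups compared here were 3 females on weekly prednisone and 3 females on vehicle, which is the solvent dimethyl sulfoxide without the drug. All groups were injected every morning, and the weekly group received vehicle on the days without prednisone, its last prednisone dose falling days before tissue was taken. Muscle was digested with collagenase and the fraction held back by a strainer was used, so cells that stay attached to the fibers can contribute RNA, and in such bulk samples fewer cells of a type cannot be told apart from less RNA per cell.

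Prednisone is a synthetic glucocorticoid that is converted in the body to prednisolone, which binds the glucocorticoid receptor. The bound receptor enters the nucleus and acts at DNA elements near target genes such as Fkbp5, Tsc22d3 and Per1. In muscle, sustained glucocorticoid exposure is known for raising Trim63 and Fbxo32, the ubiquitin ligases of fiber atrophy, and for loss of muscle mass. Glucocorticoids also act on fat cells, on the use of lipid as fuel and on immune cells.

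Trim63, the best known glucocorticoid-induced atrophy gene, holds a glucocorticoid response element beside a forkhead motif, so the 250 bases before its start are shown from the RefSeq table of assembly GRCm38.p6 (chr4:134314870-134315119, plus strand). Capitals mark a match to the relaxed glucocorticoid response element GNACANNNTGTNC, which lies 208 to 196 bases before the start, and to the forkhead motif TGTTTAC, which lies 194 to 188 bases before it. Lep, the gene of the fat cell hormone leptin, is shown beside it (chr6:29059971-29060220, plus strand) with the C/EBP palindrome TTGCGCAA in capitals, 55 to 48 bases before the start.
Trim63: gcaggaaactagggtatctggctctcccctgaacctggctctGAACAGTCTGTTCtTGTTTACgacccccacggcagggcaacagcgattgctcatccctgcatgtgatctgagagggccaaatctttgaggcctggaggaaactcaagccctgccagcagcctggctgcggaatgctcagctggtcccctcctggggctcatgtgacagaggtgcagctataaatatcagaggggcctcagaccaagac
Lep: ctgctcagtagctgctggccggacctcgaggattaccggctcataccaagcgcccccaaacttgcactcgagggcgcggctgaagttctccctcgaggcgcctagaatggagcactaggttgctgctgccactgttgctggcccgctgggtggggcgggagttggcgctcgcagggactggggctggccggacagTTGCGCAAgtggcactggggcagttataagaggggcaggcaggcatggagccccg

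Both strands were searched, and the 3 motifs do not overlap one another in these windows. Of 32851 such windows of 250 bases, 127 (0.387%) held the relaxed response element, 1040 (3.17%) the forkhead motif and 54 (0.164%) the C/EBP palindrome. A match describes letters in a window and is neither a binding site nor a cause. The relaxed response element was found for 2 of 17 glucocorticoid receptor target genes with a window, for 1 of 16 atrophy genes and for 0 of 10 adipocyte genes. The forkhead motif was found for 1 gene in each of these lists, and the C/EBP palindrome for 1 of 10 adipocyte genes and for 0 genes of the other lists.

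Each of the 6 libraries held 10506661 to 13734373 counts. The 10 most abundant genes took 28.2% to 43.6% of them, and the libraries were no copies of one another. Levels below are CPM, the count of a gene relative to a fixed total of counts in its library, after TMM normalization. The female label fits the data, since Xist was present in all 6 libraries and the Y-linked genes Ddx3y, Eif2s3y, Kdm5d and Uty had 0 to 4 counts each. The myofiber label also fits: Acta1, the actin of skeletal muscle, ranged from 23965 to 38918 CPM, and the summed level of 10 myofiber genes was 118704 to 175091 CPM in vehicle and 98450 to 134223 CPM in weekly libraries.

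The weekly libraries differed among themselves more than the vehicle libraries did. Spearman correlations across genes between 2 libraries of a group were 0.914 to 0.958 for weekly and 0.971 to 0.983 for vehicle. Weekly replicate 1 had the lowest share of counts from mitochondrially encoded genes, 13.1%, and weekly replicate 2 the highest, 36.4%, while weekly replicate 3 had 20.3% and the vehicle libraries had 21.1% to 26.3%. Weekly replicate 1 was the highest of the 6 libraries for 10 of 10 slow-fiber genes and 70 of 77 nuclear genes of the respiratory chain, and the lowest for 16 of 20 immediate early and heat shock genes, 8 of 9 endothelial genes and 8 of 8 smooth muscle and pericyte genes. Weekly replicate 2 was the lowest for 20 of 22 beta-oxidation genes and 52 of 77 respiratory chain genes, and the highest for 13 of 13 mitochondrially encoded genes and 8 of 9 endothelial genes. Vehicle replicate 2 was the highest for 13 of 20 glycolysis, 15 of 28 calcium handling, 8 of 10 fast-fiber and 12 of 19 atrophy genes. It was the lowest for 10 of 10 slow-fiber and 10 of 11 macrophage genes. How often a single library was the highest or lowest, or lay beyond all vehicle libraries, was not counted over all genes. Such counts, here and below, therefore describe the libraries and do not set a list apart from other genes.

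The test was edgeR's quasi-likelihood test with Benjamini-Hochberg adjustment over all 12889 genes, and a gene was called at an adjusted p under 0.05. Log2 fold changes are weekly over vehicle, so that 1 stands for a doubling, and they are given with their standard error. edgeR called 0 of 12889 genes (0%), and its smallest adjusted p was 0.274. At an unadjusted p under 0.05 it had 990 genes (7.68%), 691 higher (5.36%) and 299 lower (2.32%) in weekly mice. DESeq2, a different count model run on the same libraries, called 116 genes, 105 higher (0.815%) and 11 lower (0.0853%), and limma-voom called 0 genes with 900 at an unadjusted p under 0.05. The median log2 fold change over all tested genes was 0.01, and 6651 genes (51.6%) had a higher fold change.

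The 3 weekly libraries lay entirely above the 3 vehicle libraries in 618 genes (4.79%) and entirely below them in 403 (3.13%). Of the 691 higher genes, 369 were separated in this way, and of the 299 lower genes, 168 were. The higher genes did not come evenly from the weekly libraries: weekly replicate 3 exceeded all vehicle libraries in 670 of them, weekly replicate 1 in 636 and weekly replicate 2 in 431. A filter without a test, a mean log2 CPM above 2.5 and a log2 fold change beyond 0.5, was met by 412 higher genes (3.20%) and 107 lower genes (0.830%). Without weekly replicate 2, edgeR called 205 genes (1.59%), 200 higher (1.55%) and 5 lower (0.0388%), and 92 of them were among the 116 that DESeq2 called with all 6 libraries. Leaving out any of the other 5 libraries left 0 calls.

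Fat cell genes were at a higher level in the weekly libraries, mainly in replicates 1 and 3. All 14 adipocyte marker genes were tested, and all 14 were higher at an unadjusted p under 0.05 in edgeR, beside 5.36% of all genes. In 10 the weekly libraries lay entirely above vehicle, beside 4.79% of all genes. The median log2 fold change was 3.50, beside 0.01 over all genes. Of the 14, 11 had a mean above 1 CPM in vehicle. Lep met the count rule through the weekly libraries alone, so its direction was set by the rule. Their summed level was 1464 to 1594 CPM in the vehicle libraries, against 7257 CPM in weekly replicate 1, 1752 CPM in weekly replicate 2 and 8594 CPM in weekly replicate 3. Weekly replicates 1 and 3 exceeded all vehicle libraries for 14 of 14 genes, and weekly replicate 2 did so for 10 of 14. The list's mean log2 CPM was above the vehicle mean by 3.055, 0.454 and 3.919 in weekly replicates 1, 2 and 3. None of the 14 genes was at 0 in any weekly library, and Lep alone was at 0 in a vehicle library. The part of fat cell RNA in the results on lipid genes was not tested. The list's median was 3.99 without weekly replicate 2 and 2.46 without weekly replicate 3.

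Adipoq encodes adiponectin, a hormone of fat cells (ENSMUSG00000022878, mm10 chromosome 16, 23146536 to 23158028). It was at 8.79, 11.5 and 10.6 CPM in the vehicle libraries and at 183, 15 and 332 CPM in weekly replicates 1, 2 and 3. The groups did not overlap, and weekly replicate 2 lay nearest to vehicle. The log2 fold change was 4.11 ± 0.93 (SE, n = 3 per group), with an adjusted p of 0.274 in edgeR and of 0.00229 in DESeq2. Without weekly replicate 2 it was 4.63, with an adjusted p of 0.0108 in edgeR.

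Other secreted products of fat cells were arranged in the same way. Cfd, which encodes adipsin (ENSMUSG00000061780, chromosome 10, 79890853 to 79892656), was at 95.2, 111 and 88.9 CPM in vehicle and at 1444, 125 and 2033 CPM in weekly libraries, a log2 fold change of 3.61 ± 0.83. Retn, which encodes resistin (chromosome 8, 3655770 to 3660110), was at 6.08, 6.17 and 6.09 CPM and at 96.9, 9.48 and 90.8 CPM, a log2 fold change of 3.43 ± 0.76. Both were separated between the groups. Lep was near the limit of detection, at 0.338, 0 and 0.448 CPM in vehicle and 1.41, 0.957 and 3.94 CPM in weekly libraries, and its log2 fold change of 2.89 ± 1.02 was called neither by edgeR (adjusted p = 0.461) nor by DESeq2 (adjusted p = 0.0702). Hp, which encodes haptoglobin, ranged from 4.30 to 5.09 CPM in vehicle and from 6.61 to 146 CPM in weekly libraries.

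Receptors and signalling genes of fat cells were among the largest differences. Adrb3, the beta-3 adrenergic receptor through which noradrenaline starts lipolysis, was at 1.61, 0.541 and 0.717 CPM in vehicle and 51.3, 1.44 and 85.1 CPM in weekly libraries, with a log2 fold change of 5.54 ± 1.26 and a DESeq2 adjusted p of 0.000994. Weekly replicate 2 lay inside the vehicle range. Hcar1, the lactate receptor that restrains lipolysis, had a log2 fold change of 3.63 ± 0.85, and Pde3b, the phosphodiesterase through which insulin does so, had one of 4.08 ± 1.15. Prkar2b, a regulatory subunit of protein kinase A, was at 1.19 to 2.2 CPM in vehicle and at 44.4, 2.11 and 160 CPM in weekly libraries. Pparg, the nuclear receptor that directs fat cell differentiation, was at 7.80 to 9.50 CPM in vehicle and at 21.3, 14.1 and 50.6 CPM in weekly libraries, so that weekly replicate 2 was above vehicle here. Its log2 fold change was 1.68 ± 0.42, with a DESeq2 adjusted p of 0.0105, and 0.99 without weekly replicate 3. Without that library Hp was at 2.27 in place of 3.80 and Pde3b at 2.70 in place of 4.08.

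Of 8 brown adipocyte genes, 3 met the count rule. Ucp1, the uncoupling protein that defines brown fat cells, fell outside it because it had counts in too few libraries: 0, 0 and 2 counts in the vehicle libraries, 354 in weekly replicate 1, 0 in weekly replicate 2 and 3989 in weekly replicate 3. Cidea, a lipid droplet protein of brown fat, had 6, 2 and 2 counts in vehicle and 343, 0 and 1012 counts in weekly libraries. Elovl3, a fatty acid elongase, had 0 counts in all vehicle libraries and 8, 1 and 71 counts in weekly libraries. Outside the rule, 153 genes reached 10 counts in weekly replicates 1 and 3 only. The 3 tested brown adipocyte genes were not confined to those 2 libraries. They were present in the vehicle libraries, where Ucp1 had 0 to 2 counts, so their levels there did not follow Ucp1. Cox8b was at 208 to 322 CPM in vehicle and 200 to 335 CPM in weekly libraries, and Prdm16 at 9.13 to 10.9 CPM and 4.56 to 12.5 CPM. Dio2 was at 0.541 to 1.88 CPM and 2.01 to 6.26 CPM, all 3 weekly libraries above vehicle, and was higher at an unadjusted p under 0.05 in edgeR.

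**Figure D1:**
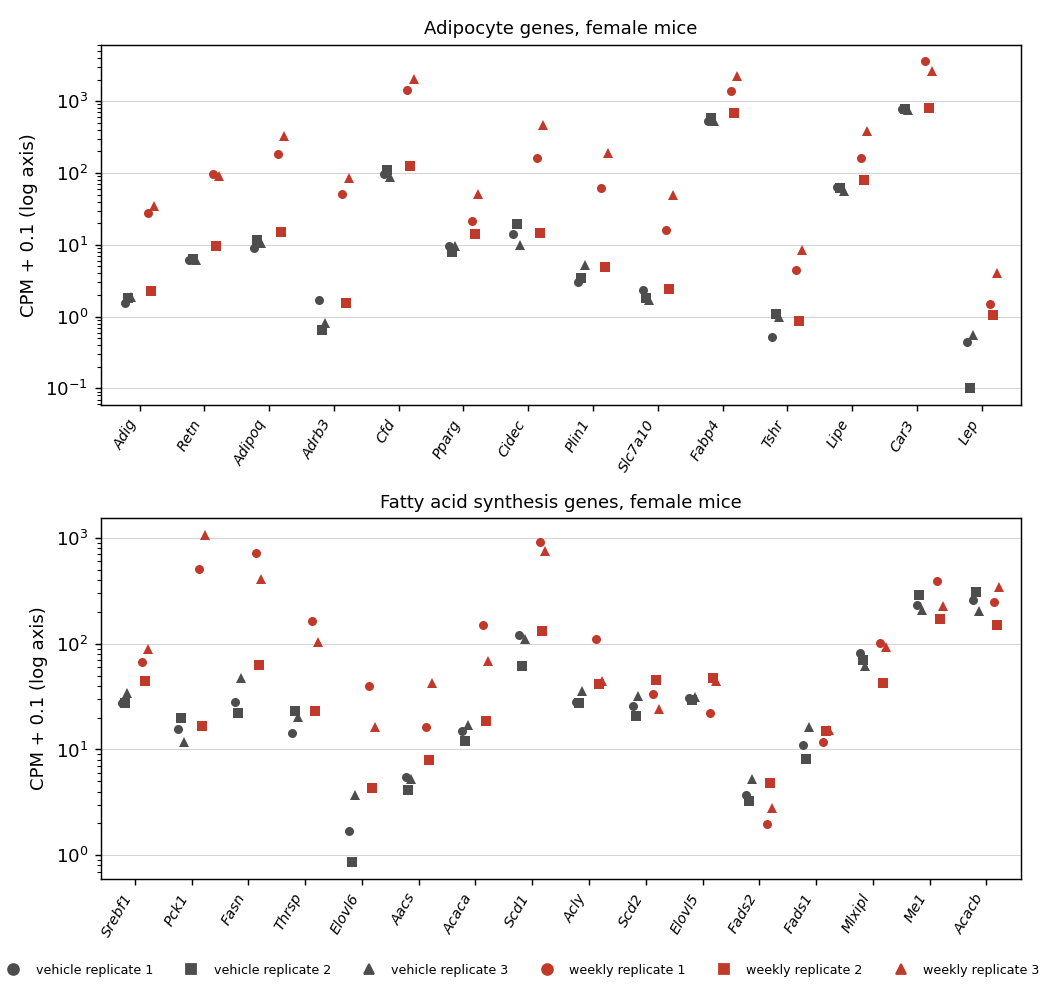
Levels of fat cell genes and fatty acid synthesis genes in each library, in CPM plus 0.1 on a log axis; grey marks are vehicle and red marks weekly females, and circle, square and triangle are replicates 1, 2 and 3. For Adipoq, weekly replicates 1 and 3 sit at 183 and 332 CPM and weekly replicate 2 at 15 CPM, beside vehicle libraries at 8.79 to 11.5 CPM.

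Genes that make fatty acids from glucose were higher in 14 of 16 cases. Of the 16 de novo lipogenesis genes, 8 were higher at an unadjusted p under 0.05 in edgeR, beside 5.36% of all genes, and none was lower. In 8 the weekly libraries lay entirely above vehicle, beside 4.79% of all genes. The median log2 fold change was 1.13. None of the 16 is in the adipocyte list, and all were tested. Their summed level was 841 to 925 CPM in vehicle and 3511, 825 and 3358 CPM in weekly replicates 1, 2 and 3, so the summed level of weekly replicate 2 was below vehicle, although it exceeded all vehicle libraries for 10 of the 16 genes taken singly.

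Srebf1, the transcription factor that drives lipogenic genes (ENSMUSG00000020538, chromosome 11, 60199089 to 60222581), was at 27.4, 27.6 and 34.1 CPM in vehicle and at 67.3, 43.9 and 88.2 CPM in weekly libraries. All 3 weekly libraries were above vehicle, with a log2 fold change of 1.16 ± 0.26, an adjusted p of 0.274 in edgeR and 0.00677 in DESeq2. Fasn, fatty acid synthase (chromosome 11, 120805940 to 120824178), was at 28.1, 22.2 and 47.4 CPM and at 719, 62.2 and 408 CPM, a log2 fold change of 3.61 ± 1.06 with a DESeq2 adjusted p of 0.0288. Its groups did not overlap, and weekly replicate 1 rather than replicate 3 was the highest.

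Acaca, the acetyl-CoA carboxylase that commits carbon to fatty acids, was at 11.8 to 17 CPM in vehicle and 150, 18.5 and 68.9 CPM in weekly libraries. Elovl6, an elongase, had a log2 fold change of 3.31 ± 0.99 and Scd1, a desaturase, one of 2.64 ± 0.88. Thrsp, a lipogenic regulator, was at 14.3 to 22.8 CPM and at 166, 22.9 and 105 CPM. Pck1, the phosphoenolpyruvate carboxykinase that supplies glycerol for triglyceride in fat cells, was at 15.6, 19.9 and 11.6 CPM in vehicle and at 505, 16.6 and 1071 CPM in weekly libraries, so that weekly replicate 2 lay within vehicle. Its log2 fold change of 5.08 ± 1.29 was called by DESeq2 (adjusted p = 0.00267).

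Triglyceride synthesis and lipolysis genes followed. Of 18 listed genes, 15 were tested and 14 had a higher fold change. At an unadjusted p under 0.05 in edgeR 8 were higher, beside 5.36% of all genes, and 0 lower. Entirely above vehicle were 7, beside 4.79% of all genes. The median of 0.78 was 0.42 without weekly replicate 3 and 1.07 without weekly replicate 2. Without Lipe, which is also an adipocyte marker, 7 of 14 were higher at that threshold and the median was 0.67. Agpat2, an acyltransferase of glycerolipid synthesis, was at 4.48, 2.82 and 5.02 CPM in vehicle and at 46.1, 6.22 and 96.0 CPM in weekly libraries, with a log2 fold change of 3.58 ± 0.83. Dgat2, which joins the last fatty acid, had one of 3.03 ± 0.79, and Dgat1, which does the same, one of 2.05 ± 0.53. G0s2, an inhibitor of the lipase Pnpla2, was at 4.98 to 7.35 CPM in vehicle and at 20.9, 7.37 and 34.4 CPM in weekly libraries, where weekly replicate 2 only just exceeded vehicle. Lpin1, a phosphatidate phosphatase, was the exception in direction, with a log2 fold change of −0.51 ± 0.29.

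Lipid droplet proteins were tested for 10 of 12 listed genes. All 10 had a higher fold change, with a median of 0.49 that was 0.16 without weekly replicate 3 and 0.72 without weekly replicate 2. At an unadjusted p under 0.05 in edgeR 4 were higher, beside 5.36% of all genes. In 0 of the 10 did the weekly libraries lie entirely above vehicle, beside 4.79% of all genes. Plin1 and Cidec, which coat the droplets of fat cells, had log2 fold changes of 4.48 ± 1.16 and 3.91 ± 0.98. Plin5 and Plin4, also on the list, had values of 0.39 ± 0.48 and 0.09 ± 0.29. Cidec, one of the genes the study names, was at 14, 19.5 and 9.68 CPM in vehicle and at 162, 14.5 and 469 CPM in weekly libraries, so weekly replicate 2 was inside the vehicle range. Without the 2 adipocyte markers, the other 8 genes had a median of 0.29 and log2 fold changes from 0.004 to 1.70. Of these 8, Plin2 and Bscl2 had an unadjusted p under 0.05 in edgeR.

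Fatty acid uptake and binding genes were 15 of 16 in the higher direction, with a median of 0.27 (0.43 without weekly replicate 1). At an unadjusted p under 0.05 in edgeR 5 were higher, beside 5.36% of all genes, and 0 lower. Without Fabp4, which is also an adipocyte marker, 4 of 15 were higher at that threshold and the median was 0.25. Slc27a1, a fatty acid transporter the study names (ENSMUSG00000031808, chromosome 8, 71568927 to 71586708), was at 56.4, 56.0 and 49.4 CPM in vehicle and at 154, 42.2 and 323 CPM in weekly libraries. Weekly replicate 2 was below all vehicle libraries, the other two were above, and the log2 fold change was 1.68 ± 0.50. It was called by DESeq2 (adjusted p = 0.0381), and by edgeR without weekly replicate 2 (2.12, adjusted p = 0.00967), while without weekly replicate 3 it was 0.87. Cd36, the main fatty acid translocase of muscle, was not separated, at 509 to 663 CPM in vehicle and 411, 677 and 989 CPM in weekly libraries.

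Beta-oxidation genes, which break fatty acids down in mitochondria, were tested for 22 of 22 and had a higher fold change in 19, with a median of 0.48 that was 0.27 without weekly replicate 1, 0.28 without weekly replicate 3 and 0.77 without weekly replicate 2. At an unadjusted p under 0.05 in edgeR 5 were higher, beside 5.36% of all genes, and 0 lower. Entirely above vehicle were 0, beside 4.79% of all genes, and 0 were entirely below. Weekly replicate 1 exceeded all vehicle libraries for 21 of 22 genes and weekly replicate 3 for 19, while weekly replicate 2 lay below all vehicle libraries for 20. The shares of these over all genes were not counted. Acadm, the medium-chain acyl-CoA dehydrogenase, was at 152, 157 and 137 CPM in vehicle and at 269, 98.8 and 312 CPM in weekly libraries, a log2 fold change of 0.61 ± 0.29. Cpt2, the inner carnitine palmitoyltransferase, had one of 0.83 ± 0.27 and Hadha, of the trifunctional protein, one of 0.36 ± 0.23. Without weekly replicate 2, edgeR called 14 of the 22 genes higher, beside 1.55% of all genes, Acadm at 0.95 (adjusted p = 0.0151) and Cpt2 at 1.13 (adjusted p = 0.00905) among them.

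Regulators of oxidation were 10 of 18 higher, with a median of 0.09 that was −0.027 without weekly replicate 1. The 18 include Pparg, which is also an adipocyte marker. Ppara, the nuclear receptor for fatty acids, was at 1.77, 0.433 and 0.358 CPM in vehicle and at 5.50, 0.670 and 14.1 CPM in weekly libraries, a log2 fold change of 2.93 ± 0.88. Ppargc1b, a coactivator of mitochondrial genes, had one of 1.50 ± 0.46 and Ppargc1a, its relative in muscle, one of 0.36 ± 0.46. Over 77 tested nuclear respiratory chain genes the median was 0.02, but it was −0.27 without weekly replicate 1 and 0.16 without weekly replicate 2. In edgeR 2 of the 77 were higher at an unadjusted p under 0.05, beside 5.36% of all genes. These 2 are the non-muscle forms of cytochrome oxidase subunits: Cox8a was at 22.1, 22.1 and 24.5 CPM in vehicle and at 75.4, 32.1 and 103 CPM in weekly libraries, and Cox6a1 at 23.2, 22.1 and 22.3 CPM and at 62.2, 29.6 and 103 CPM. Both were separated, and both were called by DESeq2 (adjusted p = 0.00305 and 0.00465). The 13 mitochondrially encoded genes had a median of −0.14, which ranged from −0.67 to 0.20 as 1 library at a time was left out.

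Genes of phosphatidylcholine and phosphatidylethanolamine synthesis, the main membrane lipids, were higher in 13 of 15 tested of 16, with a median of 0.14. Chpt1, the choline phosphotransferase the study names, was at 48.4, 31.5 and 45.6 CPM in vehicle and at 135, 32.4 and 188 CPM in weekly libraries, a log2 fold change of 1.50 ± 0.48. Weekly replicate 2 was inside the vehicle range. Lpcat3, which remodels these lipids, had one of 0.46 ± 0.16, and the remaining 13 genes were not past an unadjusted p of 0.05 in edgeR.

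**Figure D2:**
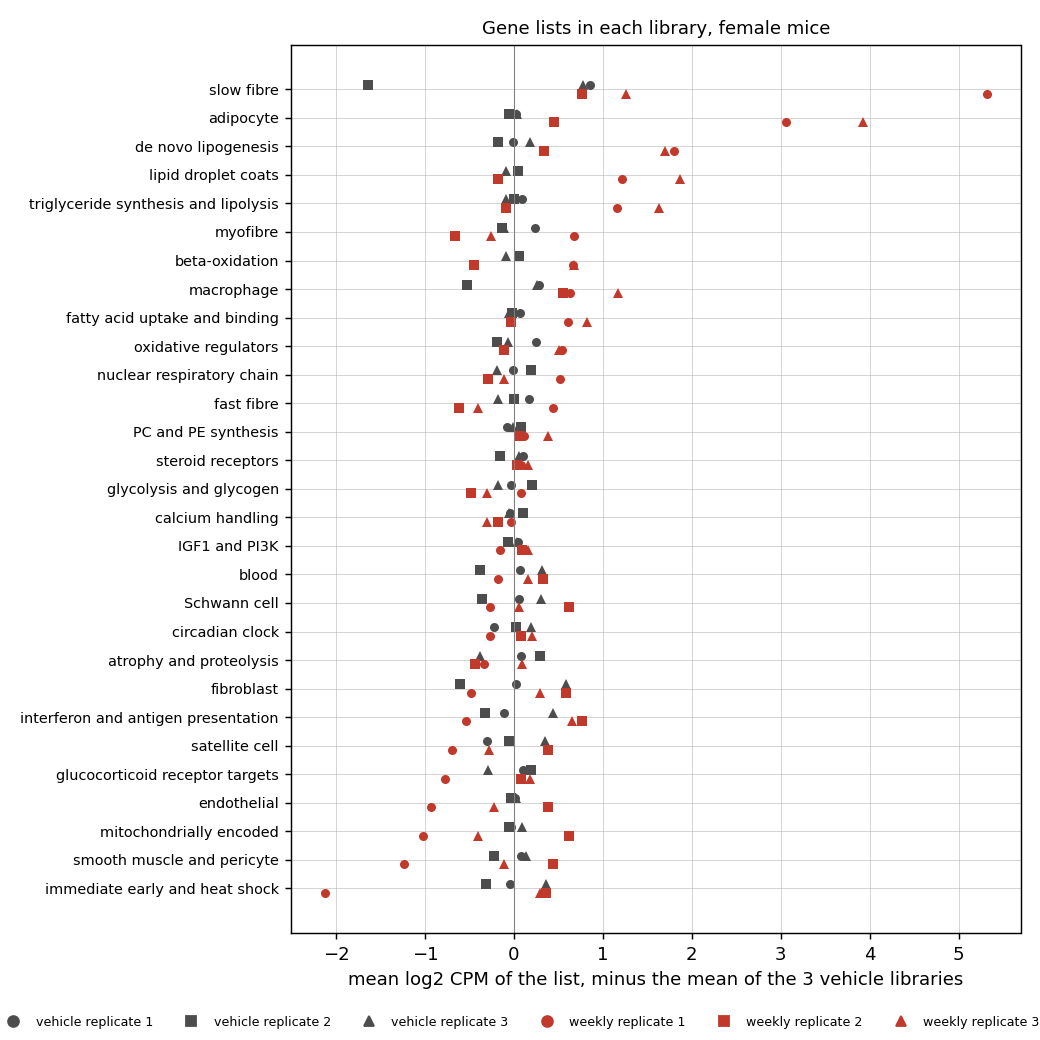
Mean log2 CPM of each gene list in each library, minus the mean of the 3 vehicle libraries; grey marks are vehicle and red marks weekly females, and circle, square and triangle are replicates 1, 2 and 3. Weekly replicates 1 and 3 lie far above vehicle for adipocyte and lipogenesis genes while weekly replicate 2 lies nearer to it, and slow-fiber genes stand out in weekly replicate 1.

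The genes that follow were named for their small p in DESeq2, apart from Kcnk3 and Slc36a2, which were named for large separated fold changes. Ifi27l2a, an interferon-inducible gene (chromosome 12, 103442167 to 103443680), was at 5.15, 4.66 and 6.27 CPM in vehicle and at 64.4, 11.4 and 108 CPM in weekly libraries, all 3 above vehicle. Its log2 fold change was 3.51 ± 0.68, with an adjusted p of 5.45e-06 in DESeq2 and 0.274 in edgeR. Phgdh, the first enzyme of serine synthesis, was at 1.86, 1.84 and 3.14 CPM and at 10.9, 4.40 and 13.9 CPM, a log2 fold change of 2.09 ± 0.43. Rbp4, which carries retinol, had one of 2.96 ± 0.68 and Nat8l, which makes N-acetylaspartate, one of 5.25 ± 1.28 from vehicle levels of 0.507 to 0.758 CPM. At those levels Nat8l met the count rule through the weekly libraries alone. Kcnk3, a potassium channel, and Slc36a2, an amino acid transporter, had log2 fold changes of 4.46 ± 1.12 and 3.83 ± 0.95, which were 2.89 and 2.51 without weekly replicate 3.

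Atrophy genes mostly had a lower fold change, but the groups overlapped. All 19 listed genes of atrophy and proteolysis were tested, and 14 had a lower fold change. At an unadjusted p under 0.05 in edgeR 5 were lower and 1 higher, beside 2.32% and 5.36% of all genes. Entirely below vehicle were 3, beside 3.13% of all genes. The median was −0.29, beside 0.01 over all genes. The median stayed between −0.36 and −0.20 as each library was left out in turn. Relative to the vehicle mean, the list's mean log2 CPM was 0.08, 0.30 and −0.38 in vehicle replicates 1, 2 and 3. In weekly replicates 1, 2 and 3 it was −0.34, −0.44 and 0.09. Weekly replicate 3 was the highest of the 6 libraries for 6 of the 19 genes.

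Trim63, the muscle ubiquitin ligase MuRF1 whose upstream window is shown above (ENSMUSG00000028834, chromosome 4, 134315120 to 134329629), was at 1017, 1417 and 188 CPM in vehicle and at 240, 202 and 482 CPM in weekly libraries. Vehicle replicate 3 was the lowest of the 6, so the groups overlapped. The log2 fold change was −1.50 ± 0.53, with an adjusted p of 0.472 in edgeR and 0.140 in DESeq2, and −1.98 without vehicle replicate 3. Fbxo32, the ligase atrogin-1 (ENSMUSG00000022358, chromosome 15, 58175879 to 58214892), was at 854, 1309 and 294 CPM and at 388, 249 and 497 CPM, a log2 fold change of −1.12 ± 0.43 and of −1.52 without vehicle replicate 3. Neither was called by either tool.

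Sqstm1, the autophagy receptor p62 (chromosome 11, 50199366 to 50210827), differed in another way, with close replicates. It was at 517, 590 and 455 CPM in vehicle and at 365, 379 and 373 CPM in weekly libraries, so that every weekly library was below every vehicle library. The log2 fold change was −0.48 ± 0.13 (adjusted p = 0.274 in edgeR, 0.00429 in DESeq2), and it lay between −0.57 and −0.40 with each library left out. Fbxo21, an F-box protein of the same list, went the other way, at 9.21, 10.4 and 9.23 CPM in vehicle and 20.5, 9.48 and 45.4 CPM in weekly libraries. Foxo1 and Foxo3, the forkhead factors that drive atrophy genes, had log2 fold changes of 0.15 ± 0.27 and −0.25 ± 0.16, and Mstn, which encodes myostatin, one of −0.41 ± 0.25.

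Glucocorticoid receptor targets were 16 of 20 in the lower direction, with a median of −0.09 that ranged from −0.35 to 0.18 over the libraries left out. Cebpb was the 1 gene of the 20 past an unadjusted p of 0.05 in edgeR, in the higher direction, beside 5.36% of all genes. It was at 24.0 to 30.8 CPM in vehicle and at 26.0, 56.2 and 82.1 CPM in weekly libraries. Fkbp5, a chaperone that feeds back on the receptor and is named by the study, was at 121, 105 and 25.8 CPM in vehicle and at 39.6, 33.1 and 71.0 CPM in weekly libraries. Vehicle replicate 3 was again the lowest of the 6, and the log2 fold change was −0.80 ± 0.42, or −1.23 without that library. Tsc22d3, the leucine zipper gene GILZ, had one of −0.25 ± 0.21 and Per1 one of 0.09 ± 0.36. Pdk4, which spares glucose in fasting muscle, was at 2124, 1925 and 503 CPM and at 1435, 390 and 1345 CPM. Nr3c1, the receptor itself, was at 53.2 to 63.5 CPM in vehicle and 56.7 to 59.8 CPM in weekly libraries, a log2 fold change of 0.00 ± 0.13.

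Clock genes differed between libraries of the same group. Of the 19 tested, vehicle replicate 3 was the highest of the 6 libraries for 6 and the lowest for 1, and vehicle replicate 1 the highest for 4 and the lowest for 6. Arntl, the clock activator BMAL1, was at 52.4, 47.6 and 20.2 CPM in vehicle and at 35.3, 19.2 and 22.2 CPM in weekly libraries. Dbp, a clock output, was at 4.06, 12.1 and 50.4 CPM in vehicle and at 12.9, 34.7 and 23.8 CPM in weekly libraries. Per2 was at 3.21, 3.57 and 12.7 CPM and at 3.29, 14.6 and 14.2 CPM. In edgeR, 0 clock genes were past an unadjusted p of 0.05, and the median was −0.02, from −0.17 to 0.04 with each library left out. The part of these differences in the values of Trim63, Fbxo32, Fkbp5 and Pdk4 was not tested.

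**Figure D3:**
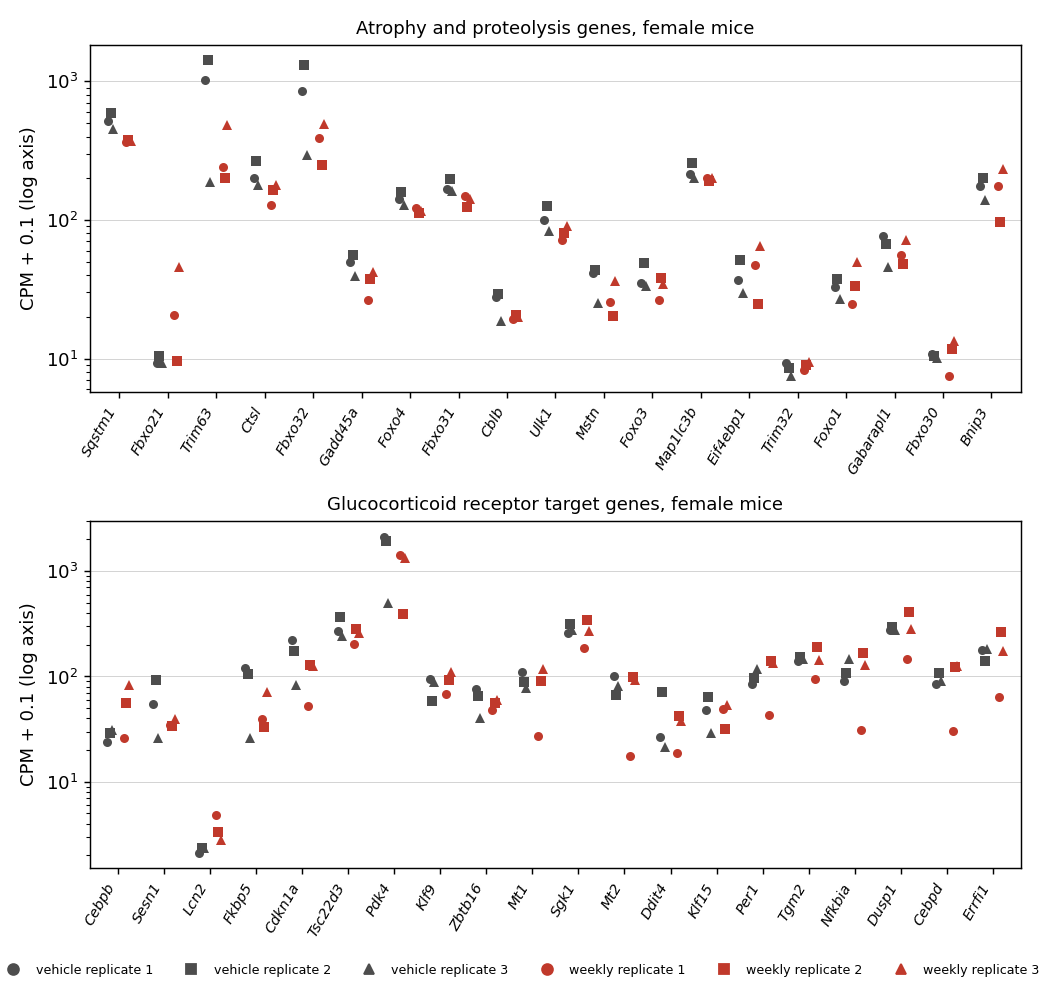
Levels of atrophy genes and glucocorticoid receptor target genes in each library, in CPM plus 0.1 on a log axis; grey marks are vehicle and red marks weekly females, and circle, square and triangle are replicates 1, 2 and 3. Vehicle replicate 3 has the lowest Trim63, 188 CPM, while Sqstm1 is at 365 to 379 CPM in all weekly libraries and at 455 to 590 CPM in vehicle.

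Slow-fiber genes had the largest median of any list, 4.47 over 10 tested genes, with 10 of 10 higher. At an unadjusted p under 0.05 in edgeR 8 were higher, beside 5.36% of all genes. Entirely above vehicle were 3, beside 4.79% of all genes. The value rests on weekly replicate 1: the summed level of the list was 115 to 200 CPM in vehicle and 2326, 239 and 199 CPM in weekly replicates 1, 2 and 3, and without weekly replicate 1 the median was 0.57. Myh7, the slow myosin heavy chain, was at 1.94, 0.108 and 1.97 CPM in vehicle and at 668, 0.862 and 6.87 CPM in weekly libraries. Its log2 fold change of 7.33 ± 2.33 became 1.50 without weekly replicate 1. Tnni1, Tnnc1 and Tnnt1, slow troponin subunits the study names, had values of 4.85, 4.63 and 4.31, which became 0.51, 0.64 and 0.82. Atp2a2, the calcium pump of slow fibers, was at 63.2, 46.4 and 68.4 CPM and at 330, 83.7 and 74.1 CPM, all 3 weekly libraries above vehicle, with a log2 fold change of 1.45 ± 0.44 that became 0.41.

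Fast-fiber genes were 8 of 10 lower, with a median of −0.36 and log2 fold changes from −0.65 to 2.02. Relative to the vehicle mean, the list's mean log2 CPM was 0.44, −0.62 and −0.41 in weekly replicates 1, 2 and 3. It was 0.17, 0.004 and −0.17 in vehicle replicates 1, 2 and 3, so weekly replicate 1 was the highest. Myh4, Atp2a1 and Pvalb, 3 of the 10, were lower at an unadjusted p under 0.05 in edgeR and entirely below vehicle. Over all genes these shares were 2.32% and 3.13%. Myh4, the fastest myosin heavy chain, was at 54280, 66440 and 40878 CPM in vehicle and at 32477, 32350 and 38464 CPM in weekly libraries, a log2 fold change of −0.65 ± 0.22. Atp2a1, the calcium pump of fast fibers, had one of −0.48 ± 0.19. Pvalb, the calcium buffer parvalbumin, had one of −0.49 ± 0.20. None was called by edgeR or DESeq2. The list's median ranged from −0.56 without weekly replicate 1 to −0.21 without vehicle replicate 2.

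Calcium handling genes were 21 of 28 lower, with a median of −0.21. At an unadjusted p under 0.05 in edgeR 8 were lower and 1 higher, beside 2.32% and 5.36% of all genes. Entirely below vehicle were 5, beside 3.13% of all genes. Mrln encodes myoregulin, a micropeptide that inhibits the fast-fiber calcium pump (ENSMUSG00000019933, chromosome 10, 70204664 to 70219711). It was at 73.9, 108 and 49.1 CPM in vehicle and at 35.9, 45.3 and 38.8 CPM in weekly libraries, with no overlap. The log2 fold change was −0.94 ± 0.26, with an adjusted p of 0.288 in edgeR and 0.0509 in DESeq2. Casq1, the calcium store protein of fast fibers, had one of −0.38 ± 0.17. Cacna1h, a T-type calcium channel the study names, was at 13.4, 9.85 and 15.1 CPM and at 4.89, 20.3 and 10.9 CPM, a log2 fold change of −0.11 ± 0.39.

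Glycolysis and glycogen genes were 18 of 20 lower, with a median of −0.24. It ranged from −0.42 without weekly replicate 1 to −0.13 without vehicle replicate 2. At an unadjusted p under 0.05 in edgeR 5 were lower, beside 2.32% of all genes. Phka1, a subunit of phosphorylase kinase, was at 635, 738 and 582 CPM in vehicle and at 550, 461 and 433 CPM in weekly libraries, a log2 fold change of −0.44 ± 0.16. Pfkm, muscle phosphofructokinase, had one of −0.41 ± 0.18. Fbp2, the muscle fructose bisphosphatase, which is on none of the lists, was at 93.9, 108 and 73.8 CPM and at 52.8, 54.1 and 64.2 CPM, a log2 fold change of −0.69 ± 0.18 that DESeq2 called (adjusted p = 0.0399). Myofiber genes as a group were 7 of 10 lower, with a median of −0.17 that was −0.48 without weekly replicate 1 and −0.029 without weekly replicate 2.

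Macrophage genes as a list were higher in the weekly libraries. Of 12 markers, 11 were tested and 11 had a higher fold change, with a median of 0.70. At an unadjusted p under 0.05 in edgeR 7 were higher, beside 5.36% of all genes. Entirely above vehicle were 4, beside 4.79% of all genes. Their summed level was 81.8, 42.6 and 78.8 CPM in vehicle and 107, 102 and 144 CPM in weekly libraries, all 3 above vehicle. Vehicle replicate 2 was the lowest of the 6 libraries for 10 of the 11 genes. The median was 0.40 to 0.95 with each library left out, and it was lowest without vehicle replicate 2. None of the 11 was at 0 in a library.

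C1qb, a chain of the first complement component made by tissue macrophages (ENSMUSG00000036905, chromosome 4, 136880129 to 136886187), was at 5.75, 2.82 and 3.67 CPM in vehicle and at 11.1, 9.57 and 13.3 CPM in weekly libraries. Its unadjusted p in edgeR was 9.06e-05, with a log2 fold change of 1.46 ± 0.28 and a DESeq2 adjusted p of 0.00229. Its log2 fold change lay between 1.24 and 1.79 with each library left out. C1qa, another chain, was at 6.17, 4.33 and 5.73 CPM and at 10.7, 9.0 and 14.3 CPM, a log2 fold change of 1.06 ± 0.25 with a DESeq2 adjusted p of 0.0169. Lyz2, lysozyme, was at 32.9, 14 and 27.8 CPM and at 40.7, 39.9 and 40.6 CPM. Cd163, a receptor of resident macrophages, was nearly level, at 5.20 to 7.17 CPM and 5.17 to 8.26 CPM.

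Interferon and antigen presentation genes were 20 of 22 higher, with a median of 0.45. At an unadjusted p under 0.05 in edgeR 8 were higher, beside 5.36% of all genes, and 0 lower. Entirely above vehicle were 5, beside 4.79% of all genes. The median was 0.10 without weekly replicate 2, which was the highest of the 6 libraries for 13 of the 22 genes, while weekly replicate 1 was the lowest for 12. The class II genes, which present peptides on macrophages and other antigen-presenting cells, did not show that split. Cd74, the invariant chain, was at 34.8, 30.2 and 48.2 CPM in vehicle and at 50.0, 51.0 and 64.7 CPM in weekly libraries, and H2-Ab1 at 12.7, 9.42 and 18.1 CPM and at 20.4, 18.3 and 24.2 CPM. Both were separated, with log2 fold changes of 0.55 ± 0.18 and 0.64 ± 0.20. Of the class I genes, B2m, the light chain, was at 149, 146 and 172 CPM and at 193, 244 and 285 CPM.

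**Figure D4:**
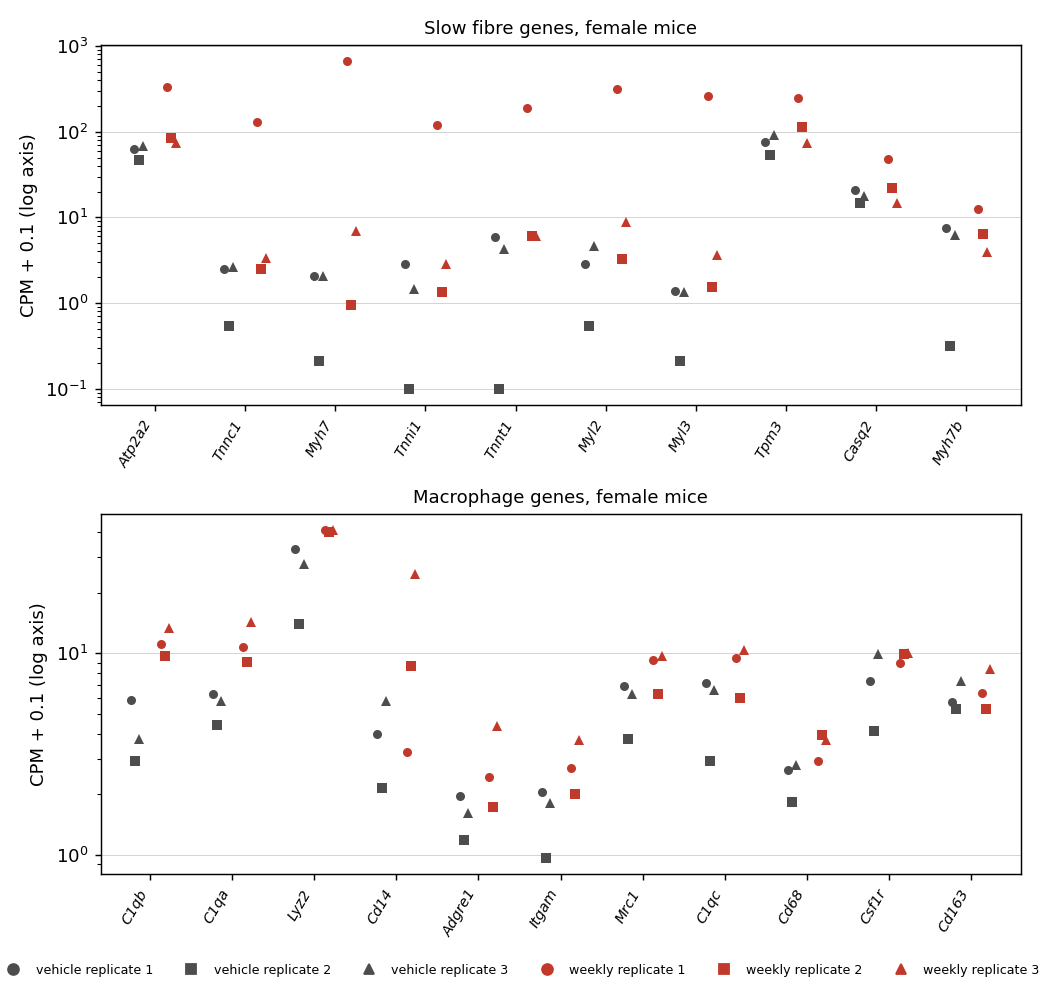
Levels of slow-fiber genes and macrophage genes in each library, in CPM plus 0.1 on a log axis; grey marks are vehicle and red marks weekly females, and circle, square and triangle are replicates 1, 2 and 3. Myh7 is at 668 CPM in weekly replicate 1 and at 0.108 to 6.87 CPM elsewhere, while C1qb is at 9.57 to 13.3 CPM in the weekly and 2.82 to 5.75 CPM in the vehicle libraries.

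Pi16, a marker of a fibroblast subset, was the 1 fibroblast gene of 9 past an unadjusted p of 0.05 in edgeR, beside 7.68% of all genes. It was at 26.2, 11.6 and 25.8 CPM in vehicle and at 37.5, 75.8 and 46.0 CPM in weekly libraries, with weekly replicate 2 the highest. The log2 fold change was 1.32 ± 0.35, and DESeq2 called it (adjusted p = 0.0283). The list as a whole had a median of −0.08, from −0.28 to 0.39 with each library left out.

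Tpx2, a spindle assembly factor (chromosome 2, 152847964 to 152895321), was at 7.27, 5.52 and 6.99 CPM in vehicle and at 3.15, 2.78 and 3.17 CPM in weekly libraries, a log2 fold change of −1.12 ± 0.27 with a DESeq2 adjusted p of 0.0267. Cdca4 had a log2 fold change of −0.93 ± 0.27, Gpsm2, a spindle orientation protein, one of −0.74 ± 0.32 and Lmnb1, lamin B1, one of −0.72 ± 0.21.

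Cpe, the peptide hormone processing enzyme carboxypeptidase E (chromosome 8, 64592558 to 64693040), was at 277, 335 and 225 CPM in vehicle and at 185, 207 and 176 CPM in weekly libraries. Its log2 fold change was −0.56 ± 0.14, with a DESeq2 adjusted p of 0.00944, and without weekly replicate 2 edgeR called it at −0.64 (adjusted p = 0.0412). Rps6kc1, a kinase-like protein, was at 26.9, 30.3 and 30.3 CPM and at 19.1, 22.2 and 17.9 CPM, a log2 fold change of −0.56 ± 0.14. Pdlim3, a protein of the muscle Z-disc, had one of −0.74 ± 0.29 and Pnck, a calmodulin-dependent kinase, one of −0.69 ± 0.22. Vcp-rs, at −0.95 ± 0.24, is a related sequence of Vcp and shares reads with it, and Srrm4os, at −1.04 ± 0.34, is an antisense gene counted with a strand setting that the sources used here do not give, so both are uncertain.

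IGF1 and PI3K genes, which carry the growth signal of muscle, were 16 of 27 higher, with a median of 0.09, from 0.04 to 0.13 with each library left out. In each direction 1 gene was past an unadjusted p of 0.05 in edgeR, beside 5.36% of all genes higher and 2.32% lower. Igf1 was at 11, 6.50 and 12.9 CPM in vehicle and at 14.3, 11.4 and 19.1 CPM in weekly libraries, a log2 fold change of 0.55 ± 0.30. Akt1 had one of 0.13 ± 0.12, Pik3ca one of −0.24 ± 0.17, Pik3c2a one of 0.09 ± 0.37 and the integrin Itga3 one of 0.23 ± 0.27. The 2 genes past that threshold were Igfbp4, an IGF-binding protein, at 0.75 ± 0.27, and Pik3cd, a catalytic subunit, at −0.40 ± 0.17.

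Steroid receptor genes, including chaperones and the glucocorticoid-activating enzyme Hsd11b1, were 5 of 9 higher, with a median of 0.00. Esr1, the estrogen receptor, was at 12.7, 12.8 and 12.9 CPM in vehicle and at 20.2, 13.5 and 18.6 CPM in weekly libraries, all above vehicle, with a log2 fold change of 0.45 ± 0.20 that was called by neither edgeR nor DESeq2.

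**Figure D5:**
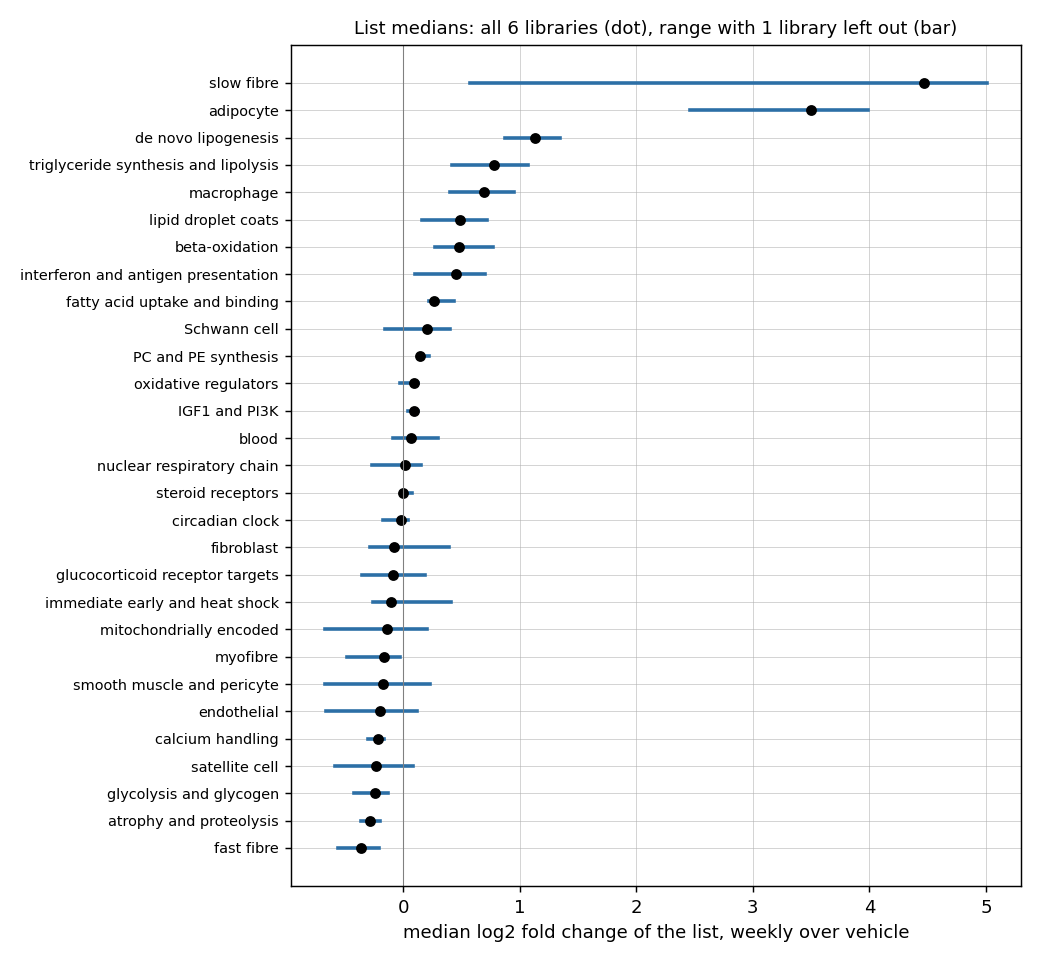
Median log2 fold change of each gene list, weekly over vehicle females (dot), with the range of that median when 1 library at a time is left out (bar). Adipocyte genes stand at 3.50 with a range of 2.46 to 3.99, and slow-fiber genes at 4.47 with a range that reaches down to 0.57.

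Markers of further cell types moved with single libraries. Endothelial genes summed to 1274 to 1340 CPM in vehicle and to 657, 1721 and 1071 CPM in weekly replicates 1, 2 and 3. Smooth muscle and pericyte genes summed to 1118 to 1464 CPM and to 565, 1871 and 1110 CPM. Fos, the leading immediate early gene, was at 943 to 1229 CPM in vehicle and at 132, 1615 and 1080 CPM in weekly libraries. Of 12 epithelial genes, 2 met the count rule. Krt18 had 97 counts in weekly replicate 1 and 0 to 5 in the others. Krt8 had 89 counts there and Epcam 33, with 0 or 1 in the others. Of the milk genes, Csn2 and Wap were at 0 in all 6 libraries. Csn3 had 15 counts in weekly replicate 1 and 0 or 1 in the others, and Lalba had 0 to 14 counts over the 6 libraries. Of 12 lymphocyte genes, 2 met the rule, and Ighm, an antibody chain, was at 19.7 to 21.9 CPM in vehicle and at 93.7, 22.5 and 28.0 CPM in weekly libraries. Medians of the remaining lists all took both signs as each library was left out. The median was 0.21 for 6 Schwann cell genes (−0.15 to 0.40), 0.07 for 5 blood genes (−0.08 to 0.30) and −0.24 for 6 of 7 satellite cell genes (−0.59 to 0.09). It was −0.20 for endothelial genes (−0.66 to 0.12), −0.17 for smooth muscle and pericyte genes (−0.67 to 0.23) and −0.10 for 20 immediate early and heat shock genes (−0.26 to 0.41). The part of these cells in the results was not tested.

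Males on weekly prednisone had their own vehicle group, so their values are separate from those above. The difference between the female and the male response, as an interaction in the same fit, was called for 0 of 12889 genes (0%) by edgeR and for 0 genes by DESeq2. In edgeR 331 genes had an unadjusted p under 0.05, and the smallest adjusted p was 0.999994. The adipocyte median was 3.50 in females and 2.01 in males, the lipogenesis median 1.13 and 0.34, the macrophage median 0.70 and −0.03, and the atrophy median −0.29 and −0.15. Closer were the glycolysis medians, −0.24 and −0.21, the calcium handling medians, −0.21 and −0.18, and the fast-fiber medians, −0.36 and −0.32. Srebf1 had log2 fold changes of 1.16 ± 0.26 in females and 0.00 ± 0.26 in males, a difference of 1.16 ± 0.37. For Pi16 they were 1.32 ± 0.35 and −0.65 ± 0.35, a difference of 1.96 ± 0.49. For C1qa they were 1.06 ± 0.25 and −0.12 ± 0.25, a difference of 1.17 ± 0.36. None of these differences was called by edgeR or DESeq2.

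Females on daily prednisone were compared with the same 3 vehicle libraries, so these comparisons share their controls. Side by side, the weekly and daily medians were 3.50 and 2.70 for adipocyte genes, 1.13 and 1.23 for lipogenesis, 0.48 and 0.34 for beta-oxidation, −0.29 and 0.01 for atrophy genes, 0.70 and 0.03 for macrophage genes, and −0.02 and 0.45 for clock genes. Mrln had a log2 fold change of −0.94 ± 0.26 with weekly and of −1.42 ± 0.26 with daily dosing, the latter called by edgeR (adjusted p = 0.0410). Lep had values of 2.89 ± 1.02 and 4.96 ± 0.94, and Mstn of −0.41 ± 0.25 and 0.69 ± 0.25.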

How the data were processed

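Reads per gene were counted from polyA RNA libraries of isolated myofibers. The deposited values are whole-number counts, which the authors made by aligning reads to mm10. The submitters' processing notes name TopHat2 2.1.0, Bowtie2 2.2.6 and HTSeq, and the strand setting is not given in the sources used here. Overlapping genes and near-identical copies are therefore uncertain.

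Groups were taken from the sample labels. Counts of all 18 libraries were scaled with TMM factors and fitted in edgeR 4.0.16 (R 4.3.3) with a quasi-likelihood model of 6 group means. Genes with at least 10 counts in at least 3 of the 6 female weekly and vehicle libraries were tested. p values were two-sided and adjusted by the Benjamini-Hochberg method over 12889 genes. The steps were tested on simulated data. Alternatives were DESeq2 1.42.0, limma-voom (limma 3.58.1), other filters and scaling, these 6 libraries alone, a replicate block and each library left out.

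Gene lists and members were chosen with earlier results of these data known. Genes were named by fixed rules: the study's own genes, the 12 largest separated differences in each direction among genes with a mean log2 CPM above 1 (leaving out gene models without a proper name), the 3 smallest p of each list with a few fixed genes, the 10 smallest p called by DESeq2, and up to 6 calls in each direction that appear when 1 library is left out. A few genes that these rules name are not reported here. Further list members named beside them were chosen after their values were seen. Libraries came from separate mice, so the spread is between animals, with 3 per group.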

Additional observations from a re-analysis of the deposited data

How the results depend on the processing

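The count of 0 calls became 116 with DESeq2 and 0 to 205 with each library left out, 205 without weekly replicate 2. With no filter on counts, 22158 genes were tested in place of 12889. Genes separated above vehicle then numbered 1025 in place of 618, and those separated below 591 in place of 403. Genes higher at an unadjusted p under 0.05 in edgeR numbered 414 in a fit of the 6 libraries alone and 410 to 944 with each library left out, and lower genes 96 and 115 to 797. Genes higher by the filter on level and fold numbered 140 with a log2 fold limit of 1, 744 with a mean log2 CPM limit of 1 and 258 to 620 with each library left out, and lower genes 7, 182 and 116 to 548. Which genes these are was not compared between settings other than DESeq2, and the causes were not tested.

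With the replicate number as a block, edgeR again called 0 genes, with 351 higher and 31 lower at an unadjusted p under 0.05. Same-numbered weekly and vehicle libraries had deviations that correlated at 0.13, −0.26 and 0.15, so the numbers were not used to pair mice.

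The log2 fold change of Cacna1h, −0.11, was 0.03 without vehicle replicate 3 and ranged from −0.73 to 0.27 with each library left out. That of Pik3c2a, 0.09, was −0.027 with limma-voom and ranged from −0.26 to 0.42 with each library left out, −0.19 of these without vehicle replicate 2. Scaling by DESeq2 size factors left the median of all genes at 0.01. With 3 mice per group and a median standard error of 0.22 on the log2 scale, small differences were not detectable.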
